A study of Mus musculus with 18 samples.

Results

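The genes described here are 10 interferon-stimulated genes that act in antiviral defence or in ISGylation, the attachment of the small protein ISG15 to other proteins: *Isg15*, *Usp18*, *Herc6*, *Ube2l6*, *Mx1*, *Mx2*, *Rsad2*, *Cmpk2*, *Bst2* and *Ifi44*. They were taken by name, as the genes of the table whose symbol is one of these, and each symbol was found once, which gives 10 of the 62197 genes listed. All 10 passed the filter on low values.

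Type I interferons bind a receptor that is present on most cells, and the transcription factor complex ISGF3 then switches on interferon-stimulated genes through a DNA motif called the interferon-stimulated response element. One of the products, ISG15, resembles ubiquitin and is joined to target proteins by a chain of enzymes, with UBA7 as the activating enzyme, UBE2L6 as the conjugating enzyme and HERC6 as the main ligase in mice, while USP18 takes it off again and also dampens signalling at the interferon receptor. DCs, which sense pathogens and prime T cells, raise such genes when pattern recognition receptors such as the LPS receptor TLR4 induce interferon-β.

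Bulk RNA-seq of polyadenylated RNA was performed on mouse bone marrow-derived DCs to ask how confinement, a flattening of the cells under a low ceiling, alters their transcriptome, whether this involves the phospholipase cPLA_2_, and how it compares with LPS, a bacterial product that matures DCs. There were 6 conditions with 3 libraries each. All cells were grown for 10 days in medium with a supernatant containing GM-CSF. Nonconfined cPLA_2_ WT and nonconfined cPLA_2_ KO cells were collected untreated at the end of this culture. Confined cPLA_2_ WT and confined cPLA_2_ KO cells were held at a height of 3 µm and collected 4 h after confinement. The LPS groups, labelled cPLA_2_ WT and cPLA_2_ KO, received 100 ng ml-1 LPS for 30 min by the sample labels. The study's methods give a slightly shorter exposure. These cells were washed and were recovered on the next day without confinement, so time after treatment differs between confinement and LPS. The cPLA_2_ KO genotype is a conditional deletion (*Pla2g4a* fl/fl with *Itgax-cre*), in which Cre is made in cells that express CD11c, from breeders on a C57BL/6 background. Bone marrow came from mice of 6 to 8 weeks, with littermates or mice of similar age as controls, and the sex of the donors of each library is not given in the sources used here. Besides DCs, such cultures contain granulocytes and macrophages. Cells that adhered at intermediate strength were collected as DCs. Each library is a bulk sample, in which fewer cells of a type and less RNA per cell cannot be told apart. Between 33027230 and 61300021 reads on genes were recovered per library, and the lowest values of the 10 genes, those of *Ifi44* in confined cPLA_2_ KO libraries (49.2 to 58.6 normalized counts), carry the largest counting error.

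Values are normalized counts, the reads of a gene divided by the size factor of its library, and were not divided by gene length. Changes are on the log2 scale, computed after 1 was added to each normalized count, with their standard errors (SE) and Benjamini-Hochberg adjusted p from 1 limma fit to all 18 libraries, in which 17875 genes passed the filter and were tested. Genes past an adjusted p of 0.05 that changed by more than 1 on this scale were called higher or lower, and "rose" and "fell" need the adjusted p alone.

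*Pla2g4a*, the gene of cPLA_2_, was present at 697, 686 and 770.4 normalized counts in nonconfined and 1369, 1430.3 and 1321 in confined cPLA_2_ WT libraries, against 548, 542 and 533 in nonconfined and 923, 871 and 919.5 in confined cPLA_2_ KO libraries. It was thus lower but not absent in each cPLA_2_ KO library than in the cPLA_2_ WT libraries of the same treatment. In the LPS libraries it did not follow the labels, with 1005, 969 and 967 in those labelled cPLA_2_ WT and 1065, 1032 and 1028 in those labelled cPLA_2_ KO. The Y-linked gene *Ddx3y* was close to 0 in all nonconfined and confined cPLA_2_ WT libraries, with at most 3.05 normalized counts, and was between 874 and 1036 in all nonconfined and confined cPLA_2_ KO libraries. *Xist*, which is made from the inactive X chromosome, was present in all of them, with 22734 to 33681 normalized counts in cPLA_2_ WT and 12153 to 24835 in cPLA_2_ KO libraries. The cPLA_2_ KO libraries of these groups thus held both *Ddx3y* and *Xist*, and genotype and the makeup of the donors by sex cannot be told apart there. In the LPS libraries *Ddx3y* was at 1271, 0 and 662 in replicates 1, 2 and 3 labelled cPLA_2_ WT and at 2.12, 1476 and 783 in those labelled cPLA_2_ KO, and *Xist* was between 16450.2 and 30960.2 in all 6. Among LPS libraries of the same number, only the pair numbered 2 therefore had *Ddx3y* near 0 under the cPLA_2_ WT label and high under the cPLA_2_ KO label, as in the nonconfined and confined groups. Even in this pair *Pla2g4a* did not follow the labels, with 969 under cPLA_2_ WT and 1032 under cPLA_2_ KO. For this reason the LPS groups are called by their labels, the mean over both labels is used as the LPS result, and each result on LPS is also given with the LPS libraries numbered 2 alone. This last setting was chosen after the values had been seen, and its lone library per label is assumed to vary like the other groups. The biological coefficient of variation of the LPS groups was 0.109 and 0.108 by label, beside 0.0477 to 0.0799 in the other 4 groups, so this assumption may understate their spread.

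Normalized counts of *Isg15* were 2497, 2492 and 2380.1 in the nonconfined cPLA_2_ WT libraries, replicates 1 to 3, and 2438, 2242 and 2388 in the nonconfined cPLA_2_ KO libraries. After confinement they were 19019, 17447 and 18115 in cPLA_2_ WT and 1059.6, 1098 and 1055 in cPLA_2_ KO libraries. LPS libraries labelled cPLA_2_ WT had 41661, 43702 and 41363 and those labelled cPLA_2_ KO had 42019, 40514 and 42724. Confined cPLA_2_ WT libraries were all above and confined cPLA_2_ KO libraries all below every nonconfined library, the nonconfined genotypes overlapped, and all LPS libraries were the highest. With confinement *Isg15* rose 7.40-fold in cPLA_2_ WT DCs, or by 2.89 ± 0.04 (SE, limma adjusted p = 3.91e-22) on the log2 scale. In cPLA_2_ KO DCs it fell with confinement, at -1.14 ± 0.04 (SE, limma adjusted p = 1.45e-14). The interaction, the change in cPLA_2_ KO minus the change in cPLA_2_ WT DCs, was -4.02 ± 0.06 (SE, limma adjusted p = 6.01e-21).

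The nonconfined cPLA_2_ WT libraries held 4928, 4928 and 4928 and the nonconfined cPLA_2_ KO libraries 4971, 4551 and 4643 normalized counts of *Usp18*. Confinement left *Usp18* at 14337, 13278 and 13801 in cPLA_2_ WT and at 1557, 1609 and 1659 in cPLA_2_ KO libraries. With LPS *Usp18* was at 27144, 27174 and 27207 in libraries labelled cPLA_2_ WT and at 27926, 26818 and 27414 in those labelled cPLA_2_ KO. The 3 nonconfined cPLA_2_ WT libraries were equal after rounding. *Usp18*, whose product removes ISG15, was like *Isg15* highest with LPS, next in confined cPLA_2_ WT and lowest in confined cPLA_2_ KO libraries, with no overlap other than that between the nonconfined genotypes and that between the LPS labels. In cPLA_2_ WT DCs it rose 2.80-fold, by 1.49 ± 0.04 (SE, limma adjusted p = 1.14e-17). In cPLA_2_ KO DCs it was 2.93-fold lower after confinement, with -1.55 ± 0.04 (SE, limma adjusted p = 3.73e-17). Its interaction was -3.04 ± 0.06 (SE, limma adjusted p = 1.35e-19).

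Normalized counts of *Ube2l6* were 2558, 2649 and 2612 in the nonconfined cPLA_2_ WT libraries, replicates 1 to 3, and 2387, 2245 and 2359 in the nonconfined cPLA_2_ KO libraries. After confinement they were 3302, 3279.9 and 3299 in cPLA_2_ WT and 1380.1, 1383 and 1378 in cPLA_2_ KO libraries. LPS libraries labelled cPLA_2_ WT had 10552, 11394 and 11102 and those labelled cPLA_2_ KO had 11707, 11149 and 11168. For *Ube2l6*, the gene of the conjugating enzyme, the 3 libraries of each confined group lay close together, confined cPLA_2_ WT libraries were a little above and confined cPLA_2_ KO libraries were well below all nonconfined libraries, and LPS libraries stood far above the rest. It rose 1.26-fold in cPLA_2_ WT DCs, by 0.34 ± 0.04 (SE, limma adjusted p = 4.8e-07), too little for a call. When all libraries were brought to 1 total, this rise was 0.11 (limma adjusted p = 0.0338). In cPLA_2_ KO DCs it fell, with -0.76 ± 0.04 (SE, limma adjusted p = 4.02e-12), and the interaction was -1.09 ± 0.06 (SE, limma adjusted p = 2.96e-12). *Herc6*, the gene of the ISG15 ligase, ranged from 1493 to 1579 normalized counts in the nonconfined cPLA_2_ WT libraries, from 3744 to 3888 after confinement, from 1339.8 to 1427 in the nonconfined cPLA_2_ KO libraries and from 582 to 615 after confinement. All 6 LPS libraries held between 11596 and 12214. None of the nonconfined and confined groups overlapped for *Herc6*, which rose with confinement in cPLA_2_ WT DCs (1.32), fell in cPLA_2_ KO DCs (-1.20) and had an interaction of -2.52 ± 0.06 (SE, limma adjusted p = 3.85e-18).

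*Mx1* and *Mx2* encode dynamin-like GTPases that trap viral components, and in C57BL/6 mice *Mx1* carries a deletion that inactivates its protein. For *Mx2* too, the counts do not say whether an active protein is made. The nonconfined cPLA_2_ WT libraries held 2149.6, 2037 and 2076 and the nonconfined cPLA_2_ KO libraries 1736, 1798 and 1766 normalized counts of *Mx1*. Confinement left *Mx1* at 5734, 5757 and 5776 in cPLA_2_ WT and at 579, 542 and 539 in cPLA_2_ KO libraries. With LPS *Mx1* was at 6894, 8325 and 7582 in libraries labelled cPLA_2_ WT and at 7829, 7991 and 7464 in those labelled cPLA_2_ KO. The nonconfined genotypes did not overlap, with cPLA_2_ KO libraries lower, and confined cPLA_2_ WT libraries came close to the lowest LPS library. The rise of *Mx1* was 2.76-fold in cPLA_2_ WT DCs (1.46 ± 0.06 SE, limma adjusted p = 2.35e-15), and in cPLA_2_ KO DCs it fell (-1.67 ± 0.06 SE, limma adjusted p = 1.19e-15). The interaction of *Mx1* was -3.14 ± 0.08 (SE, limma adjusted p = 7.33e-18). *Mx2* ranged from 398 to 437 normalized counts in nonconfined and from 3194 to 3449 in confined cPLA_2_ WT libraries, and from 299 to 403 in nonconfined and from 142 to 200.5 in confined cPLA_2_ KO libraries. It ranged from 3923 to 4277 in libraries labelled LPS cPLA_2_ WT and from 4143 to 4554 in those labelled LPS cPLA_2_ KO. In cPLA_2_ WT DCs *Mx2* rose 7.91-fold with confinement, by 2.98 ± 0.11 (SE, limma adjusted p = 1.06e-15). Its nonconfined genotypes overlapped, its change in cPLA_2_ KO DCs was -0.97, and its interaction was -3.95 ± 0.15 (SE, limma adjusted p = 1.06e-14).

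*Rsad2* encodes viperin, which converts CTP into a chain-terminating nucleotide, and its neighbour *Cmpk2* encodes a nucleotide kinase of mitochondria. Normalized counts of *Rsad2* were 344, 334 and 321 in the nonconfined cPLA_2_ WT libraries, replicates 1 to 3, and 414, 416 and 439 in the nonconfined cPLA_2_ KO libraries. After confinement they were 11593, 11202 and 11191 in cPLA_2_ WT and 438, 472 and 444 in cPLA_2_ KO libraries. LPS libraries labelled cPLA_2_ WT had 21869, 19959 and 19505 and those labelled cPLA_2_ KO had 18168, 20732 and 18946. *Rsad2* was low in all nonconfined and confined cPLA_2_ KO libraries, where confined and nonconfined cPLA_2_ KO cells overlapped, and it was high in all confined cPLA_2_ WT and LPS libraries. Its 33.9-fold rise with confinement in cPLA_2_ WT DCs, 5.08 ± 0.06 (SE, limma adjusted p = 1.62e-24), was the largest of the 10 genes. In cPLA_2_ KO DCs the change was 0.09 ± 0.06 (SE, limma adjusted p = 0.182) and did not pass the test, which gave an interaction of -4.99 ± 0.08 (SE, limma adjusted p = 6.01e-21). *Rsad2* was also the only member that rose in nonconfined cPLA_2_ KO compared to nonconfined cPLA_2_ WT DCs, by 0.34 ± 0.06 (SE, limma adjusted p = 0.000562). *Cmpk2* ranged from 284 to 353 normalized counts in nonconfined and from 2638 to 2791 in confined cPLA_2_ WT libraries, and from 372 to 393 in nonconfined and from 141 to 149 in confined cPLA_2_ KO libraries. In libraries labelled LPS cPLA_2_ WT *Cmpk2* ranged from 5509 to 6294, and in those labelled LPS cPLA_2_ KO from 5351 to 6093. Unlike *Rsad2*, *Cmpk2* fell below every nonconfined library in all confined cPLA_2_ KO libraries, with a change of -1.38 ± 0.08 (SE, limma adjusted p = 3.9e-12), while it rose in cPLA_2_ WT DCs (3.06) and had an interaction of -4.44 ± 0.11 (SE, limma adjusted p = 3.85e-18).

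*Bst2* encodes tetherin, a membrane protein that holds budding virions at the cell surface. The nonconfined cPLA_2_ WT libraries held 10595, 10655 and 10330.0 and the nonconfined cPLA_2_ KO libraries 11588, 9922 and 11433 normalized counts of *Bst2*. Confinement left *Bst2* at 10947, 10604 and 10652 in cPLA_2_ WT and at 7152, 7395 and 6965 in cPLA_2_ KO libraries. With LPS *Bst2* was at 22334, 25688 and 22358 in libraries labelled cPLA_2_ WT and at 24064, 21781 and 22693 in those labelled cPLA_2_ KO. The nonconfined libraries of both genotypes and confined cPLA_2_ WT libraries overlapped, confined cPLA_2_ KO libraries were all lower and LPS libraries all higher. With confinement *Bst2* changed by 0.03 ± 0.06 (SE, limma adjusted p = 0.71) in cPLA_2_ WT DCs, which did not pass the test, and when all libraries were brought to 1 total it was below 0, at -0.20 (limma adjusted p = 0.00893). In cPLA_2_ KO DCs it fell with confinement, at -0.61 ± 0.06 (SE, limma adjusted p = 2.37e-08), and its interaction of -0.64 ± 0.08 (SE, limma adjusted p = 3.53e-06) was the closest to 0 of the 10 genes.

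*Ifi44* encodes a cytoplasmic protein that interferon induces. Normalized counts of *Ifi44* were 399, 370.1 and 372 in the nonconfined cPLA_2_ WT libraries, replicates 1 to 3, and 176, 158 and 143 in the nonconfined cPLA_2_ KO libraries. After confinement they were 755, 907 and 854 in cPLA_2_ WT and 57.2, 58.6 and 49.2 in cPLA_2_ KO libraries. LPS libraries labelled cPLA_2_ WT had 2034, 3923 and 2905 and those labelled cPLA_2_ KO had 3774, 2109 and 2866. Of the 10 genes it alone was called between the nonconfined genotypes, 2.39-fold lower in cPLA_2_ KO DCs (-1.26 ± 0.18 SE, limma adjusted p = 0.000192), and no libraries of these groups overlapped. It rose in confined cPLA_2_ WT DCs (1.14 ± 0.18 SE, limma adjusted p = 1.94e-05) and fell in confined cPLA_2_ KO DCs (-1.51 ± 0.18 SE, limma adjusted p = 8.09e-07), with an interaction of -2.65 ± 0.26 (SE, limma adjusted p = 6.77e-08). These errors were wider than for the other genes, and the fit pools the spread of all 18 libraries. Within the LPS labels *Ifi44* was spread widely and ran opposite to *Ddx3y*. *Ifi44* was highest in LPS cPLA_2_ WT replicate 2 and LPS cPLA_2_ KO replicate 1, where *Ddx3y* was at 0 and 2.12. It was lowest in LPS cPLA_2_ WT replicate 1 and LPS cPLA_2_ KO replicate 2, where *Ddx3y* was highest, and between these values in both libraries numbered 3. *Bst2* and *Ube2l6* had the library order of *Ifi44* in both labels and *Cmpk2* that of *Ddx3y*, while the other members had neither order in both. The summed markers of neutrophils, eosinophils, conventional DCs and macrophages had the order of *Ddx3y*, and those of plasmacytoid DCs had that of *Ifi44*. The part of these markers and of the donors' makeup by sex was not tested.

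**Figure D1:**
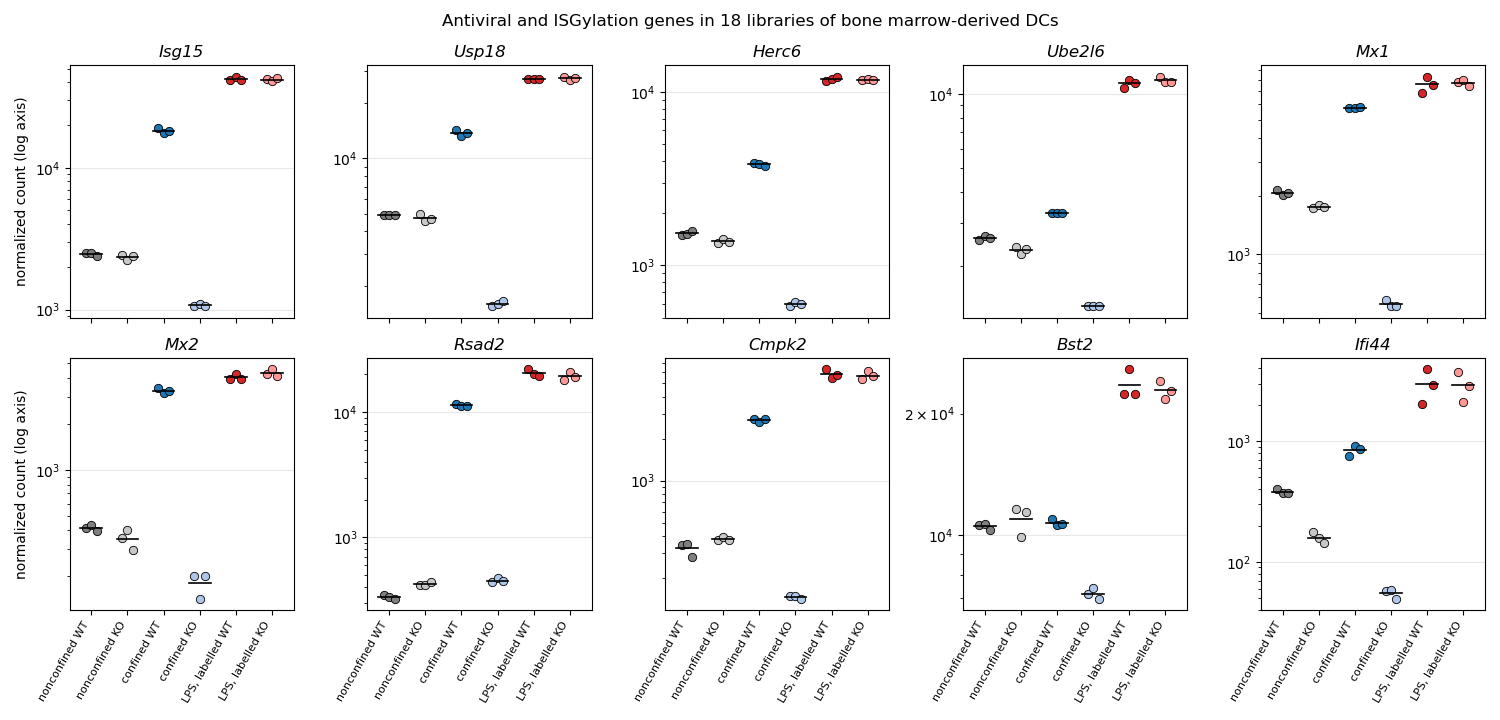
Normalized counts of the 10 genes (vertical log axes, a separate range for each gene) in the 6 conditions (horizontal axes), with a point per library, 3 per condition, and a bar at the mean of each condition. For all genes but *Rsad2* the confined cPLA_2_ KO libraries lie lowest, and for all genes but *Bst2* the confined cPLA_2_ WT libraries lie between the nonconfined and the LPS libraries.

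Confinement thus raised most of the 10 genes in cPLA_2_ WT DCs. Of these, 8 were called higher, beside 11.4% of all genes tested, and 9 rose by the adjusted p alone, beside 28.2%. The median log2 fold change of the 10 genes was 1.47, beside -0.01 over all genes tested. The exceptions were *Ube2l6*, which rose without a call, and *Bst2*, which did not pass the test. Scaling each library to the same total moved the median of all genes tested to -0.23, and 7 genes were then called higher, as *Ifi44* came to 0.91.

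In cPLA_2_ KO DCs the same treatment lowered most of them. Confinement had 6 of the 10 genes called lower, against 5.53% of all genes tested, and 9 fell by the adjusted p alone, against 23.4%. The falls that passed the test ranged from -1.67 for *Mx1* to -0.61 for *Bst2*, and *Rsad2* was the exception. The median was -1.17, beside 0.01 over all genes tested. *Mx2* was just below the fold required for a call, and it was called with the same total per library.

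The interaction was negative and past the test for all 10 genes, against 15.6% of all genes tested, and 9 were called, against 6.56%. It ranged from -4.99 for *Rsad2* to -0.64 for *Bst2*, with a median of -3.09, beside 0.05 over all genes tested. With the same total per library the median of all genes tested moved to 0.24 and the interaction of *Ube2l6* to -0.90, so that 8 genes were called. Both changes that enter the interaction have their own nonconfined libraries.

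Without confinement the differences between genotypes lay between -0.25 and 0.34 for 9 of the 10 genes, and *Ifi44* stood apart at -1.26. Of the 10 genes, 1 was called lower in nonconfined cPLA_2_ KO than in nonconfined cPLA_2_ WT DCs, *Ifi44*, against 0.302% of all genes tested. By the adjusted p alone 4 fell, against 4.11%, and 1 rose, *Rsad2*, against 4.78%. Besides *Ifi44*, those that fell were *Mx1* (-0.24), *Ube2l6* (-0.16) and *Herc6* (-0.15). The falls of *Herc6* (limma adjusted p = 0.0337) and *Ube2l6* (limma adjusted p = 0.0183) were lost when single nonconfined libraries were left out, with limma adjusted p up to 0.151 for *Herc6* without cPLA_2_ WT replicate 3 and up to 0.0782 for *Ube2l6* without cPLA_2_ WT replicate 2.

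Under confinement the genotypes lay far apart. All 10 genes were lower in confined cPLA_2_ KO than in confined cPLA_2_ WT DCs by the adjusted p alone, against 20.6% of all genes tested, and 9 were called, against 7.31%. The largest differences were those of *Rsad2* (25.1-fold lower, -4.65 ± 0.06 SE, limma adjusted p = 2.32e-23), *Cmpk2* (18.6-fold lower, -4.22 ± 0.08 SE, limma adjusted p = 8.24e-21) and *Mx2* (18.4-fold lower, -4.20 ± 0.11 SE, limma adjusted p = 3.89e-18), and the smallest was that of *Bst2* (-0.58 ± 0.06 SE, limma adjusted p = 5e-08). The median was -3.64, beside 0.04 over all genes tested, which moved to 0.19 with the same total per library.

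Together the 10 genes took 0.0750%, 0.0758% and 0.0742% of all normalized counts in nonconfined cPLA_2_ WT libraries and 0.187%, 0.184% and 0.185% in confined cPLA_2_ WT libraries. In nonconfined cPLA_2_ KO libraries their share was 0.0731%, 0.0682% and 0.0721%, and in confined cPLA_2_ KO libraries it was 0.0362%, 0.0382% and 0.0363%. The share was 0.312%, 0.337% and 0.317% in the LPS libraries labelled cPLA_2_ WT and 0.327%, 0.311% and 0.317% in those labelled cPLA_2_ KO. It does not depend on the size factors, and it was higher in each confined cPLA_2_ WT library than in any nonconfined library, lower in each confined cPLA_2_ KO library and highest in the LPS libraries.

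LPS raised all 10 genes. Averaged over the labels, all 10 were called higher in LPS-treated than in nonconfined DCs, against 15.6% of all genes tested, and by label all 10 were called higher for cPLA_2_ WT, against 15%, and for cPLA_2_ KO, against 15%. Averaged over the labels the rise ranged from 1.11 ± 0.04 (SE, limma adjusted p = 4.28e-16) for *Bst2* to 5.72 ± 0.04 (SE, limma adjusted p = 1.05e-28) for *Rsad2*, with a median of 3.24, beside 0.02 over all genes tested. For *Isg15* it was 4.12 ± 0.03 (SE, limma adjusted p = 5.16e-28), for *Usp18* 2.50, for *Herc6* 3.02 and for *Ube2l6* 2.18. With the LPS libraries numbered 2 alone all 10 genes were again called over both labels, with 1.14 for *Bst2*, 5.76 for *Rsad2* and 4.13 for *Isg15*, and by label 10 were called for cPLA_2_ WT and 9 for cPLA_2_ KO, where *Bst2* was at 0.99. With the same total per library the median of all genes tested moved to -0.46, and 9 genes were called higher, with *Bst2* at 0.61. The confinement and LPS comparisons share the nonconfined libraries.

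Between the LPS libraries labelled cPLA_2_ KO and those labelled cPLA_2_ WT, limma called 0 of the 10 genes and 0% of all genes tested. At an unadjusted p under 0.05 the counts were 0 of the 10 genes and 890 of all genes tested. The edgeR and DESeq2 tests also called 0 genes, with 812 and 831 genes at an unadjusted p under 0.05 and 0 of the 10. The members' differences ranged from -0.09 to 0.09, and given the conflict of labels and *Ddx3y* they do not describe a genotype. The LPS libraries numbered 2 alone set 1 library against 1, and their *Ifi44* values of 3923 and 2109 differ by -0.90 on the log2 scale, a value given without a test.

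Confined cPLA_2_ WT DCs did not reach the LPS level for any of the 10 genes, at collection times that differ between confinement and LPS. The strength of the 2 treatments is therefore not compared here. All 10 were lower by the adjusted p alone than the mean over the LPS labels, against 29.8% of all genes tested, and 6 were called lower, against 7.84%. The 2 Mx genes came closest, with -0.34 ± 0.09 (SE, limma adjusted p = 0.00431) for *Mx2* and -0.41 ± 0.05 (SE, limma adjusted p = 2.53e-07) for *Mx1*, followed by *Rsad2* (-0.81) and *Usp18* (-0.98). The largest distances were those of *Ifi44* (-1.76 ± 0.16 SE, limma adjusted p = 5.75e-09), *Ube2l6* (-1.76 ± 0.04 SE, limma adjusted p = 2.31e-19) and *Herc6* (-1.63). *Isg15* was at -1.21, *Bst2* at -1.11 and *Cmpk2* at -1.07. This comparison depends on scaling, since the same total per library moved the median of all genes tested from -0.01 to 0.27, after which 3 genes were called lower and *Mx2* no longer passed the test (-0.05, limma adjusted p = 0.652). Over all settings *Mx1* ranged from -0.503 to -0.125 and *Rsad2* from -0.845 to -0.519. With the LPS libraries numbered 2 alone 6 genes were called lower, and *Mx2* was at -0.42 and *Mx1* at -0.50.

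Confined cPLA_2_ KO DCs, also collected at another time than the LPS groups, were far below the LPS level for each gene. All 10 were called lower than the mean over the LPS labels, against 12.9% of all genes tested, from -1.69 for *Bst2* to -5.67 ± 0.16 (SE, limma adjusted p = 4.99e-18) for *Ifi44*. The median was -4.42, beside 0.03 over all genes tested, which moved to 0.46 with the same total per library. With the LPS libraries numbered 2 alone all 10 were called lower as well, from -1.72 for *Bst2* to -5.69 for *Ifi44*.

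**Figure D2:**
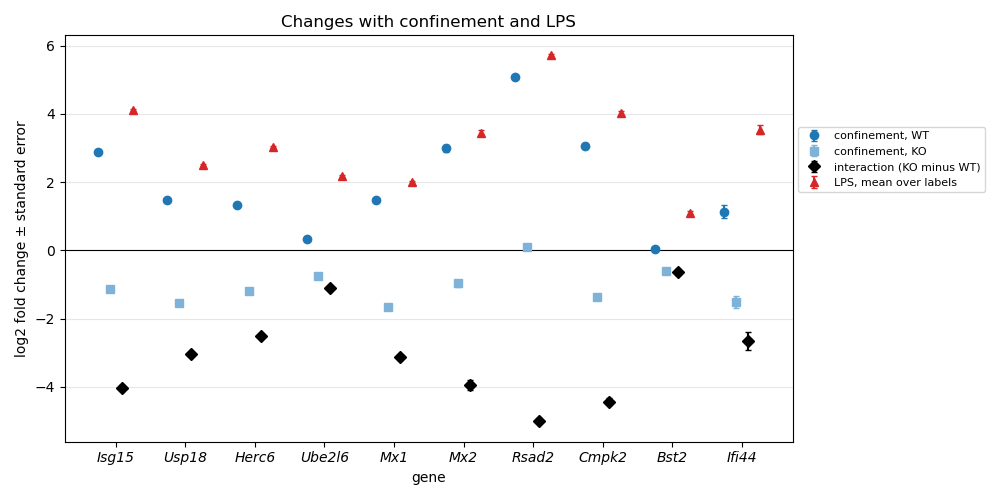
Log2 fold changes of the 10 genes (vertical axis, with standard errors as bars, one column of points per gene along the horizontal axis) for confinement in cPLA_2_ WT DCs, confinement in cPLA_2_ KO DCs, their interaction (cPLA_2_ KO minus cPLA_2_ WT) and LPS over both labels. Time after treatment differs between confinement and LPS. All interactions lie below 0, from -4.99 for *Rsad2* to -0.64 for *Bst2*, and all LPS changes lie above the change with confinement of the same gene, while the change of *Bst2* with confinement in cPLA_2_ WT DCs, 0.03, falls below 0 with the same total per library.

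Levels of the genes were compared per kilobase of annotated exons. In nonconfined cPLA_2_ WT DCs *Bst2* had the highest level, 8671 ± 142 normalized counts per kilobase (SD, n = 3), followed by *Isg15* with 3141 ± 84.7 and *Usp18* with 1516 ± 0.0678. At the low end *Rsad2* (76.9 ± 2.67), *Cmpk2* (75.8 ± 8.79) and *Ifi44* (61.8 ± 2.56) had the lowest levels per kilobase, and those of *Rsad2* and *Cmpk2* did not differ beyond their spread. In confined cPLA_2_ WT DCs *Isg15* led with 23265 ± 1009 normalized counts per kilobase (SD, n = 3), ahead of *Bst2* with 8842 ± 153, *Usp18* with 4248 ± 163 and *Rsad2* with 2613 ± 52.8. In confined cPLA_2_ KO DCs *Bst2* was again first, with 5907 ± 178 normalized counts per kilobase (SD, n = 3), and *Isg15* second with 1369.7 ± 30.3. *Usp18* and *Ube2l6* had levels per kilobase there that did not differ beyond their spread, 495 ± 15.8 and 493 ± 0.922 (SD, n = 3). In the libraries labelled LPS cPLA_2_ WT *Isg15* led with 54018 ± 1628 normalized counts per kilobase (SD, n = 3) and *Bst2* had 19324 ± 1589. When the exons of the canonical transcript alone were used, the first 3 genes kept their order in all 6 conditions, while *Ifi44* moved from rank 10 to 8 in nonconfined cPLA_2_ WT DCs.

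The members' log2 values followed each other across the conditions. Over the 18 libraries, the Pearson correlation of each member with the mean of the standardized values of the other members ranged from 0.906 for *Bst2* and 0.926 for *Rsad2* to 0.9955 for *Herc6*. Of 11148 other genes whose mean was 100 normalized counts or more, the 8 most highly correlated with the members' mean over these 18 libraries were *Gm4951* (0.9985), *Isg20* (0.9978), *Znfx1* (0.9971), *Ifi209* (0.9967), *Ddx60* (0.9967), *Eif2ak2* (0.9966), *Ccr7* (0.9965) and *Gbp3* (0.9965). Such values mostly describe the steps between the 6 conditions.

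Of 4 other enzymes of ISG15 conjugation and removal, 1 was called higher in confined cPLA_2_ WT DCs, beside 11.4% of all genes tested, and 1 was called lower in the interaction, beside 6.56%. In the interaction 3 of the 4 fell by the adjusted p alone, beside 15.6%, with a median of -0.58, beside 0.05 over all genes tested, and with the same total per library 2 fell. *Uba7*, the gene of the activating enzyme, was present at 2905, 2793 and 2808 normalized counts in nonconfined and 2448, 2269 and 2315 in confined cPLA_2_ WT libraries, against 2771, 3017 and 3011 in nonconfined and 1169, 1029 and 1115 in confined cPLA_2_ KO libraries. It fell with confinement in both genotypes, with -0.28 in cPLA_2_ WT compared to -1.41 in cPLA_2_ KO DCs on the log2 scale and an interaction of -1.13 ± 0.08 (SE, limma adjusted p = 2.16e-10). *Trim25*, a ligase that is also an effector of RIG-I signalling, was present at 1937, 1882 and 1920.2 normalized counts in nonconfined and 5082, 5099.6 and 4989 in confined cPLA_2_ WT libraries, against 1544, 1731 and 1749.8 in nonconfined and 2344, 2137 and 2247 in confined cPLA_2_ KO libraries. It rose in cPLA_2_ WT DCs (1.40 ± 0.05 SE, limma adjusted p = 4.91e-16) and less in cPLA_2_ KO DCs (0.42), with an interaction of -0.98 ± 0.07 (SE, limma adjusted p = 2.69e-10). *Arih1*, a ligase of the ring-between-ring type, rose in both (0.73 and 0.56), with an interaction of -0.18 (limma adjusted p = 0.0217), and *Usp16*, a deubiquitinase, had an interaction of -0.04 (limma adjusted p = 0.818) that did not pass the test. With LPS all 4 rose, beside 37.2% of all genes tested, from 0.49 for *Usp16* to 1.92 for *Trim25*, and 2 were called higher, beside 15.6%, as were 2 with the LPS libraries numbered 2 alone.

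For 14 relatives of the members that interferon is not known to induce, namely genes of ubiquitin and NEDD8, *Uba1*, *Ube2l3*, *Herc1* to *Herc4*, *Cmpk1* and dynamins, the changes with confinement went both ways. In confined cPLA_2_ WT DCs 6 of the 14 rose and 2 fell by the adjusted p alone, with changes from -0.21 to 0.41, beside 28.2% and 28.4% of all genes tested, while 2 rose and 6 fell with the same total per library. In confined cPLA_2_ KO DCs 4 rose and 4 fell, beside 22.8% and 23.4%, with changes from -0.26 to 0.69. In the interaction 3 fell by the adjusted p alone, beside 15.6% of all genes tested, but with the same total per library 4 rose. The interaction ranged from -0.29 to 0.31, with a median of -0.07, and those farthest from 0 were *Herc1* (0.31 ± 0.17 SE, limma adjusted p = 0.209), *Uba1* (-0.29 ± 0.05 SE, limma adjusted p = 0.000147) and *Herc3* (0.28 ± 0.11 SE, limma adjusted p = 0.066), of which *Uba1* alone passed the test. With LPS 8 of the 14 rose, beside 37.2% of all genes tested, and 1 was called higher, beside 15.6%, with changes from -0.08 to 1.24, and with the LPS libraries numbered 2 alone 7 rose and 1 was called.

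Of 19 interferon ligands listed, 1 passed the filter on low values, *Ifnb1*, which encodes interferon-β. It was present at 3.05, 5.12 and 5.90 normalized counts in nonconfined and 105, 92.6 and 103 in confined cPLA_2_ WT libraries, against 0, 1.86 and 3.88 in nonconfined and 11.9, 6.40 and 6.38 in confined cPLA_2_ KO libraries. LPS libraries held 167, 155 and 146 normalized counts under the cPLA_2_ WT label and 144, 134 and 134 under the cPLA_2_ KO label. Confined cPLA_2_ WT and LPS libraries were thus high and did not overlap with the nonconfined and confined cPLA_2_ KO libraries, all of which were near or under the limit of the filter. *Ifnb1* passed the filter through the confined cPLA_2_ WT and LPS libraries alone, so its changes are given without a test. On the log2 scale the change of *Ifnb1* with confinement was 4.19 for cPLA_2_ WT compared to 1.88 for cPLA_2_ KO DCs, a difference of -2.31. At such low counts the values depend on the amount added, and with 0.5 in place of 1 they were 4.32, 2.27 and -2.05. Of the 18 other ligands, 9 were at 0 in all 18 libraries, and none exceeded 8.49 normalized counts in any library.

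Of 11 genes of the type I interferon receptor and of signalling to ISGF3, 4 were called higher in confined cPLA_2_ WT DCs, beside 11.4% of all genes tested, and 2 lower in confined cPLA_2_ KO DCs, beside 5.53%. With the same total per library 2 were called higher and 3 lower. In the interaction 6 were called lower, beside 6.56%, and 9 fell by the adjusted p alone, beside 15.6%, with a median of -1.22, beside 0.05 over all genes tested. Among these were *Irf7* (-2.60 ± 0.07 SE, limma adjusted p = 9.14e-18), which encodes a factor that amplifies interferon production, and *Stat2* (-1.76 ± 0.06 SE, limma adjusted p = 3.48e-15), which encodes a subunit of ISGF3. *Irf7* was present at 3798, 3627 and 3565 normalized counts in nonconfined and 9564, 8741 and 9009 in confined cPLA_2_ WT libraries, against 4342, 4056 and 4463 in nonconfined and 1719, 1745 and 1803 in confined cPLA_2_ KO libraries. Of 25 other interferon-stimulated antiviral effectors, 24 were tested. In confined cPLA_2_ WT DCs 8 were called higher, beside 11.4% of all genes tested, and 1 lower, with a median of 0.58, and 4 were called higher with the same total per library. In confined cPLA_2_ KO DCs 10 were called lower, beside 5.53%, and 21 fell by the adjusted p alone, beside 23.4%. In the interaction 14 were called lower, beside 6.56%, and 20 fell, beside 15.6%, with a median of -1.5. The largest interactions were those of *Ddx60* (-2.95), *Isg20* (-2.88) and *Rtp4* (-2.69).

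Markers of other cell types moved with the groups. Beside their counts stand the shares of all genes tested that rose and fell by the adjusted p alone, 28.2% and 28.4% with confinement in cPLA_2_ WT DCs, 22.8% and 23.4% in cPLA_2_ KO DCs, 10.2% and 15.6% in the interaction, 18.8% and 20.6% between the confined genotypes, 4.78% and 4.11% between the nonconfined genotypes and 37.2% and 34.3% with LPS. Called higher and lower were 11.4% and 7.62% with confinement in cPLA_2_ WT DCs, 6.43% and 5.53% in cPLA_2_ KO DCs, 1.11% and 6.56% in the interaction, 2.79% and 7.31% between the confined genotypes and 15.6% and 13.4% with LPS. The summed normalized counts of 8 neutrophil markers, of which *S100a9* was the most abundant, were 238752, 243828 and 242192 in nonconfined and 154013, 146804 and 144581 in confined cPLA_2_ WT libraries, against 369490.0, 332192 and 357354 in nonconfined and 333025, 346015 and 329985 in confined cPLA_2_ KO libraries. With LPS they were 308802, 290063 and 292182 under the cPLA_2_ WT label and 276705, 312354 and 294381 under the cPLA_2_ KO label. All 8 rose in the interaction by the adjusted p alone, beside 10.2% of all genes tested and opposite to the 10 genes, and 6 were called higher in confined cPLA_2_ KO than in confined cPLA_2_ WT DCs, beside 2.79%. The sums of 5 eosinophil markers, with *Prg2* the most abundant, were 28679.5, 28371 and 28301 in nonconfined and 7500.4, 7026 and 6966 in confined cPLA_2_ WT libraries, against 68572, 64245 and 66091 in nonconfined and 16577, 16071 and 17043 in confined cPLA_2_ KO libraries. With LPS they were 40221, 23637 and 31887 under the cPLA_2_ WT label and 23448, 39823 and 32486 under the cPLA_2_ KO label. In the nonconfined and confined groups these sums were lower with confinement and higher in cPLA_2_ KO than in cPLA_2_ WT libraries of the same treatment, and in the LPS groups the labels overlapped. Of the 5 eosinophil markers, 4 fell with confinement in each genotype and 1 did not pass the test, and 4 were higher and 1 lower in cPLA_2_ KO DCs, both without confinement (down to -0.57) and with it (down to -0.39).

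The sums of 10 markers of conventional DCs, led by *Cd74*, were 454413, 428816 and 434279 in nonconfined and 420912, 392277 and 404525 in confined cPLA_2_ WT libraries, against 536799, 506523 and 524978 in nonconfined and 371236, 357170.0 and 370003 in confined cPLA_2_ KO libraries. With LPS they were 660828, 574059 and 606861 under the cPLA_2_ WT label and 579164, 648526 and 623788 under the cPLA_2_ KO label, the highest of all libraries. In confined cPLA_2_ WT DCs 2 of the 10 were called higher and 3 lower, with changes from -2.62 to 1.39, and by the adjusted p alone 2 rose and 7 fell. In confined cPLA_2_ KO DCs 3 were called lower and 9 fell by the adjusted p alone, as did 9 of the 10 genes, with changes from -2.40 to 0.02. In the interaction 2 were called lower and 6 fell by the adjusted p alone, beside 15.6% of all genes tested. These falls had the direction of the 10 genes. With the same total per library 3 fell and 1 rose. The interactions of these markers ranged from -1.93 to 0.22, so the markers did not move as a unit. Whether single markers changed with DC maturation or with the share of DCs was not tested. Their counts are therefore not a measure of DC content. With LPS 2 were called higher and 1 lower, with changes from -3.96 to 1.78, and the LPS libraries numbered 2 alone gave equal counts. The sums of 8 macrophage markers, led by *Adgre1*, were 20314.5, 20251 and 20634 in nonconfined and 17630.2, 17166 and 17339.9 in confined cPLA_2_ WT libraries, against 24494, 25848 and 25321 in nonconfined and 18975, 17811 and 18932 in confined cPLA_2_ KO libraries, and ranged from 20537 to 27192 with LPS. Of these markers, with confinement 5 fell by the adjusted p alone in cPLA_2_ WT DCs while 6 did so in cPLA_2_ KO DCs, of which 1 and 3 were called lower. In the interaction 1 fell, and between the confined genotypes 4 were higher and 1 lower in cPLA_2_ KO DCs. With LPS 2 rose and 6 fell, and these counts were equal with the LPS libraries numbered 2 alone. For 5 markers of mast cells and basophils, led by *Cpa3*, the sums were 6724, 7014 and 6861 in nonconfined and 3518, 3397 and 3463 in confined cPLA_2_ WT libraries, against 10295, 10027 and 9837 in nonconfined and 5477, 5348 and 5527 in confined cPLA_2_ KO libraries. Of these 5, with confinement 4 fell and 1 rose in each genotype. In the interaction 3 rose, opposite to the 10 genes, and 1 fell, with a median of 0.43. Between the confined genotypes 4 were higher in cPLA_2_ KO DCs, of which 2 were called. The sums of 8 plasmacytoid DC markers, led by *Tcf4*, were 739, 738 and 693 in nonconfined and 982, 991 and 1012 in confined cPLA_2_ WT libraries, against 686, 782 and 823 in nonconfined and 619, 655 and 588 in confined cPLA_2_ KO libraries, and ranged from 2055 to 2612 with LPS. Like most of the 10 genes, these sums were highest with LPS, next in confined cPLA_2_ WT and lowest in confined cPLA_2_ KO libraries, while those of the nonconfined genotypes overlapped. Of the 7 plasmacytoid DC markers tested, 1 rose and 2 fell in confined cPLA_2_ WT DCs, 2 fell in confined cPLA_2_ KO DCs, and 1 rose and 1 fell in the interaction, which ranged from -1.19 to 0.81. The 4 T cell markers, led by *Cd3g*, summed to between 2492 and 3223 in nonconfined, between 797 and 1308 in confined and between 527 and 592 in LPS libraries, with 3 that fell and 1 that rose in confined cPLA_2_ WT DCs, and the 3 NK cell markers, led by *Klrb1c*, to at most 9.60 in any library. No marker of these lists was at 0 in all libraries. Within each LPS label the sums of neutrophil, eosinophil, conventional DC and macrophage markers had the library order of *Ddx3y*, opposite to *Ifi44*, and those of plasmacytoid DC markers had the order of *Ifi44*. The part of all these markers in the results on the 10 genes was not tested.

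In the GENCODE annotation of GRCm39, *Isg15* (identifier GSMG0039844 in the table) lies from 156283883 to 156285303 on the minus strand of chromosome 4, with 2 exons in its canonical transcript. *Usp18* (GSMG0044992) lies from 121222848 to 121247877 on the plus strand of chromosome 6 and *Herc6* (GSMG0044389) from 57557932 to 57642597 on the plus strand of chromosome 6. *Ube2l6* (GSMG0029594) lies from 84628630 to 84640783 on the plus strand of chromosome 2, *Bst2* (GSMG0055162) from 71986895 to 71990114 on the minus strand of chromosome 8 and *Ifi44* (GSMG0036197) from 151436559 to 151455625 on the minus strand of chromosome 3. *Mx1* (GSMG0022135) lies from 97248235 to 97264107 on the minus strand of chromosome 16 and *Mx2* (GSMG0021287) from 97336508 to 97362100 on the plus strand of chromosome 16. These 2 paralogs lie 72400 bases apart and point away from each other, with 1 other protein-coding gene between them, and how reads shared between them were counted is not given in the sources used here. *Rsad2* (GSMG0011864) lies from 26492745 to 26506451 on the minus strand of chromosome 12 and *Cmpk2* (GSMG0010619) from 26519203 to 26529836 on the plus strand of chromosome 12. They also point away from each other, 12751 bases apart, with no protein-coding gene between them. The interval that the table gives for *Herc6* spans 188441 bases, compared with 84666 in the annotation, and takes in *Ppm1k* on the opposite strand, whose exons do not overlap those of *Herc6*. The counts of *Herc6* may therefore hold other transcripts. Exons of *Herc6* overlap the long noncoding RNAs *Gm45193* on the same strand and *Gm66279* on the opposite strand, and reads of *Gm45193* cannot be told apart from those of *Herc6* by strand. Exons of *Isg15*, *Usp18*, *Mx1* and *Cmpk2* overlap long noncoding RNAs on the opposite strand, and those of *Ube2l6* overlap *Smtnl1* and the long noncoding RNA *Gm75306* on the opposite strand. The libraries are strand-specific, but the strand setting of the counting is not given in the sources used here, so reads of such partners may be included.

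Because the genes moved together, their promoters were searched for 3 motifs. Windows of 250 bases before to 50 after the start were taken from a RefSeq table (GRCm38.p6), which gave 7 of the 10 genes, all but *Usp18*, *Mx1* and *Mx2*, and each window was found once in GRCm39, whose coordinates are used here. Both strands were searched for GAAANNGAA, the core of the interferon-stimulated response element, for TTCNNNGAA, known as the gamma-activated site, and for the NF-kB motif known as kappaB. The first was found in 4 of the 7 windows, those of *Isg15*, *Rsad2*, *Bst2* and *Ifi44*, and in 8.56% of 32851 such windows of 27025 genes. In the windows without this match, all 250 bases before the start in *Ube2l6* and *Cmpk2* and 175 in *Herc6* lie in annotated exons. In *Isg15* 28 and in *Ifi44* 78 of these bases do, and in *Rsad2* and *Bst2* 0 do. The gamma-activated site was found in 1 window and in 8.3% of all, and kappaB in 1 window and in 8.46% of all, in both cases that of *Bst2*. In *Isg15* there were 3 overlapping matches from -78 to -58 relative to the start, in *Bst2* 2 overlapping matches from -130 to -116, in *Rsad2* 1 match on the opposite strand from -119 to -111 and in *Ifi44* 1 match across the start. In *Bst2* the kappaB match from -142 to -133 overlaps the gamma-activated site from -136 to -128, which overlaps the response element. A match describes letters and not a bound site, and no match says only that these letters are absent from the window. The sequences upstream of *Isg15* (chr4:156285304-156285525), *Rsad2* (chr12:26506452-26506701) and *Bst2* (chr8:71990117-71990366), all on the minus strand and printed from 5′ to 3′ in the direction of transcription, are shown because they hold the matches in the gene with the highest level in confined cPLA_2_ WT DCs, in the gene with the largest change and in the gene that did not pass the test there. They lie outside annotated exons, and capitals mark matches to GAAANNGAA or its reverse complement.
Isg15: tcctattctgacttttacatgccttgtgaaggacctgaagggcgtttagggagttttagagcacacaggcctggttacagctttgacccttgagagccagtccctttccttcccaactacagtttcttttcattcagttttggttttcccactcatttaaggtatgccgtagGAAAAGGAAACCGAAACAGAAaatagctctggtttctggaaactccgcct
Rsad2: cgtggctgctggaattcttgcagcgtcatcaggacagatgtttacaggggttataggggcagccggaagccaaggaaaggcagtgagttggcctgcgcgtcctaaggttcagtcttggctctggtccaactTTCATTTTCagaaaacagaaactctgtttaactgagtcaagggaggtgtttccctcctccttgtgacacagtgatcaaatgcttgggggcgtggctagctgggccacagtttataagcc
Bst2: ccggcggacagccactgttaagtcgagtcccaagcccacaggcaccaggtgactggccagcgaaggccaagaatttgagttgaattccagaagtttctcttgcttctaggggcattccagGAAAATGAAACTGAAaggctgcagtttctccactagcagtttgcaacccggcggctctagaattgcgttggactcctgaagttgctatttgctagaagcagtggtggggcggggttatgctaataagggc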

How the data were processed

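The deposited signal values are read counts per gene that the authors had normalized with the size factors of DESeq2. By the study's methods, reads were mapped with STAR to GRCm39 and counted on the FAST DB annotation, and the submitters' processing notes name STAR 2.7.5a, featureCounts 1.5.0 and R 3.5.3. The labels name 2 strand-specific library kits without saying which library was made with which. Whole reads were recovered from the values (100.0% of values above 0 were within 0.01 of a whole read), between 33027230 and 61300021 per library. Of 62197 genes listed, 37020 have no symbol.

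The filter on low values kept the 17875 genes that reached 10 normalized counts in 3 or more libraries. limma 3.58.1 (R 4.3.3) with a trended variance was fitted to log2(normalized count + 1) of all 18 libraries with a mean for each of 6 conditions, and p-values were adjusted by Benjamini-Hochberg over all genes tested in each comparison. The procedure was tested on simulated data with the same spread in all groups and changes in confined cPLA_2_ WT libraries alone. This test was read for confined against nonconfined cPLA_2_ WT libraries only, so it does not cover the LPS results or the interaction. p-values measure only the spread between these libraries. The paper calls them biological replicates, but the cultures or animals that each library came from are not given in the sources used here. Calls need an adjusted p under 0.05 and a log2 change beyond 1 in absolute value. Replicates differed by more than sampling noise.

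Alternatives were pseudocounts of 0.5 and 5, other filters, 1 total for all libraries, TMM scaling, the recovered reads in edgeR 4.0.16 (quasi-likelihood test) and DESeq2 1.42.0, fits to the compared groups alone, a replicate block, other thresholds, leaving out each library and, chosen after seeing the data, the LPS libraries numbered 2 alone. On recovered reads edgeR called 2141 genes higher and 1252 lower in confined compared to nonconfined cPLA_2_ WT DCs and DESeq2 2154 and 1348, beside 2038 and 1362 with limma.

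Members and lists were chosen with earlier results of these data known. The genes named are all members, of each list the 3 with the largest absolute interaction or all of a list of 5 or fewer, and the 8 outside the members whose log2 values correlate best with theirs. Some items that this rule or the lists give are not reported here. Figures and tables were made with Python 3.11.15, pandas 2.3.3, numpy 2.4.6 and matplotlib 3.10.9.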

Additional observations from a re-analysis of the deposited data

Results flagged for a closer look

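For all 10 genes the change with confinement differed between genotypes, tested as the interaction in the limma fit to all libraries. Among the genes of ISGylation it was -4.02 on the log2 scale for *Isg15*, -3.04 for *Usp18*, -2.52 for *Herc6* and -1.09 for *Ube2l6*. Among the other effectors it was -3.14 for *Mx1*, -3.95 for *Mx2*, -4.99 for *Rsad2*, -4.44 for *Cmpk2*, -0.64 for *Bst2* and -2.65 for *Ifi44*. Genotype and the makeup of the donors by sex cannot be told apart in the 4 groups compared.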

How the results depend on the processing

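Of 100 changes of the 10 genes, over 10 comparisons without that between the LPS labels, 95 kept their direction and their side of the threshold on the adjusted p under all 29 alternatives. Bringing all libraries to 1 total turned *Bst2* in confined cPLA_2_ WT DCs to -0.197 (limma adjusted p = 0.00893) and left *Mx2* in confined cPLA_2_ WT DCs compared to LPS short of the threshold (limma adjusted p = 0.652). The falls of *Herc6* and *Ube2l6* in nonconfined cPLA_2_ KO DCs missed the threshold in some fits, with limma adjusted p between 0.0528 and 0.151 for *Herc6* and between 0.0541 and 0.0782 for *Ube2l6*, while that of *Mx2* came to 0.0475 there without nonconfined cPLA_2_ KO replicate 2. The cause was not tested. Of the counts of genes called, with the adjusted p alone 1 gene was higher and 4 were lower in nonconfined cPLA_2_ KO compared to nonconfined cPLA_2_ WT DCs. In confined cPLA_2_ WT DCs compared to LPS 3 genes were called lower with 1 total and 10 with the adjusted p alone, and all other counts moved by at most 1.5 times. With a replicate block 8 genes were called higher in confined cPLA_2_ WT DCs, as without it, and the block changed no call. The numbers were not taken as pairs, since in 0 of 15 pairs of groups did all 3 correlations of libraries of the same number exceed 0.1, although they were 0.338, 0.208 and 0.040 between the confined groups. Counting error is small at these depths, except for *Ifnb1* and the other ligands, and low counts of *Ifi44* in confined cPLA_2_ KO libraries.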
